A study of Homo sapiens with 12 samples.

Results

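Vemurafenib changed gene expression differently in the human melanoma cell lines A375 and A2058, and the genes behind that difference are described here. The question was which genes responded in opposite directions, and which moved in 1 line while the other stayed within a narrow bound. All 12 arrays of the series entered, and each of 18404 named genes was tested for the difference between the 2 responses, that is, the A375 change (vemurafenib minus DMSO) minus the A2058 change. Each line was grown with DMSO or with vemurafenib, which makes 4 groups of 3 arrays. No array was taken before treatment, so "before" and "after" below stand for the DMSO and the vemurafenib arrays. Both lines are labelled as carrying BRAF V600E. The treated cells received 1 µM vemurafenib over 72 h with renewal each 24 h, and the controls an equal volume of the solvent DMSO. That protocol stands on all samples but speaks of A375p cells alone, so for A2058 the dose and the duration are known only if the text covers it too. Each line stands for 1 established culture of 1 tumour. Nothing in the labels says that replicates came from separate cultures, so p-values measure the spread between these arrays, which may be technical. A bulk array averages over all cells, so a change in every cell and a change in a share of the cells cannot be told apart.

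BRAF V600E is a kinase that signals without a growth factor, through MEK to ERK, and ERK drives genes of proliferation and its own feedback inhibitors. Vemurafenib blocks the mutant kinase. Melanoma cells also differ in their lineage programme, in which the transcription factor MITF controls pigment genes, and in how strongly they read out interferon, a signal that induces antiviral and antigen presentation genes.

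Values are log2 expression values from Affymetrix Human Gene 1.0 ST arrays and ran from 3.24 to 13.08. Arrays have no depth of reads, and their number sets the precision. A group mean under 5 is called near the array floor here, and 27.6% of the named genes lay under 5 in all 4 groups. Replicates correlated at r = 0.9978 to 0.9989 across genes, except that replicate 1 of A375 vemurafenib reached only 0.9941 and 0.9939 with replicates 2 and 3, themselves correlated at 0.9982. The median SD of a gene was accordingly 0.0866 in A375 vemurafenib and 0.0461 to 0.0591 in the other groups. The counts of the gene classes are therefore also given without that array, and the same is done for some gene lists. Of 8 measured melanocytic markers, A375 DMSO had 4 under 5 (PMEL, MLANA, TYR and TYRP1) and A2058 DMSO had 1 (MLANA), while SOX10 stood at 9.53 and 9.21. The summed log2 level of those markers was 52.6 to 53.2 in A375 DMSO, 55.0 to 55.7 in A375 vemurafenib, 67.2 to 67.7 in A2058 DMSO and 77.9 to 78.0 in A2058 vemurafenib. Of 36 measured markers of other cell types 15 lay under 5 in all groups, among them PTPRC of blood cells at 4.15 to 4.17 and EPCAM of epithelia at 4.48 to 4.55. Others exceeded 5 in some or all groups, such as KRT18 (7.46 to 10.26), CD68 (8.32 to 10.16), LYZ (4.79 to 7.83), KDR (5.06 to 6.91) and FAP (4.22 to 6.75) by group means. The responses differed for 8 of the 36, beside 29.5% of all genes. The difference was largest for LUM, which went from 4.22 to 6.37 in A375 and from 6.88 to 6.47 in A2058. The A375 change was also the higher for LYZ (0.85), CD68 (0.71), KDR (0.51), PDGFRB (0.40) and DCN (0.26). It was the lower for PDGFRA (−0.61) and CLDN4 (−0.45). LYZ fell in both lines, from 7.83 to 6.56 in A375 and from 6.91 to 4.79 in A2058. The sums of the other marker lists over all 4 groups ran from 48.9 to 54.6 for 10 fibroblast, 58.2 to 62.7 for 11 immune, 42.2 to 46.8 for 8 epithelial and 33.9 to 35.8 for 7 endothelial genes. The part of these shifts in the results was not tested.

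The responses differed for 5434 genes, 29.5% of all tested, at an adjusted p under 0.05 (limma, two-sided, Benjamini-Hochberg over 18404 genes). The A375 change was the higher for 2416 of them (13.1%) and the lower for 3018 (16.4%). A difference of at least 2-fold was reached by 772 genes (4.19%), 380 higher (2.06%) and 392 lower (2.13%) in A375. Without replicate 1 of A375 vemurafenib, 6638 genes were called, 5332 of them shared. Sorted by the calls in each line, 812 of the 5434 genes (14.9%) changed in both lines with opposite signs. Another 496 rose in both and 610 fell in both by unequal amounts, and in these sets A375 had the larger change for 339 and 453 genes. A375 alone was called for 2327 (42.8%), A2058 alone for 1057 (19.5%), and neither line for 132. A line that misses the threshold has not been shown to stay still, so a stricter rule was used for genes that moved in 1 line only. It asked for a change of at least 2-fold in that line, a called difference between the lines, and a 95% confidence interval of the other line's change inside ±0.5 (1.41-fold).

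**Figure D1:**
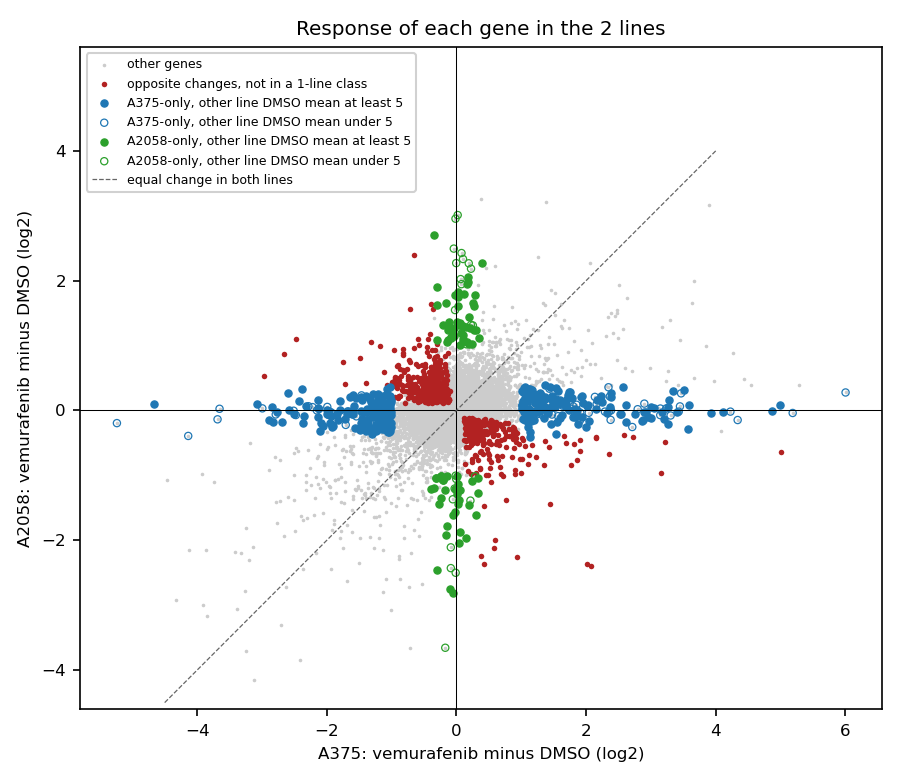
Change of each of 18404 genes in A375 (horizontal axis, vemurafenib minus DMSO, log2) against the change in A2058 (vertical axis, log2), 1 point a gene. A375-only genes are blue and A2058-only genes green, with open circles where the other line's DMSO mean was under 5. Opposite changes are red, except for 34 that also moved in 1 line only by rule and are blue or green. The blue points reach 6.0 for IFIT1 and −5.24 for SYTL5 while their A2058 change stays near 0, and the green points reach at most 3.01 upward and −3.66 downward.

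By that rule 383 genes moved in A375 only (2.08% of all tested) and 107 in A2058 only (0.581%). The rule bounds the other line and does not require it to be still: 116 of the 383 and 41 of the 107 had a called change there inside the bound, and 34 genes of these sets also count among the 812 opposite changes. Of the 773 genes called at 2-fold or more in A375 (4.2%), 49.5% met it, and of the 365 such genes in A2058 (1.98%), 29.3% did. Most of the rest moved the same way in both lines, 343 of the 773 and 232 of the 365, with a called difference in size for 284 and 172. The other line lay near the floor before treatment for 102 of the 773 A375 genes and 35 of the 365 A2058 genes. Across all 18404 genes the 2 responses correlated at r = 0.37, a description over genes, which are not independent replicates. The lines share no arrays in this comparison.

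Opposite changes were mostly small. Among the 812 genes (4.41% of all tested), 332 rose in A375 and fell in A2058 (1.8%), with median changes of 0.34 and −0.33, and 480 fell in A375 and rose in A2058 (2.61%), with medians of −0.36 and 0.30. Both changes reached 0.5 for 44 and 38 genes, and both reached 1 for 3 and 2. In 325 of the 332 and 471 of the 480 genes the vemurafenib arrays lay outside the DMSO arrays in both lines, which the calls largely fix; over all genes 3.15% and 4.24% were separated in these directions. The line with the higher mean was another one after treatment for 149 and 217 genes, the gap between the lines narrowed for 82 and 97, and it widened for 101 and 166. A line was near the floor before treatment for 26 and 10 of them, while 27.6% of all genes lay under 5 in all 4 groups. An opposite change needs a called fall in 1 line, and a fall near the floor has little room to show, which limits these counts. Leaving out replicate 1 of A375 vemurafenib gave 1061 opposite changes, 767 of them among the 812, with 481 of the first kind and 580 of the second.

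MMP1, a collagenase, rose in A375 and fell in A2058. It measured 5.97, 6.02 and 5.87 in A375 DMSO and 7.82, 8.15 and 8.11 with vemurafenib. In A2058 it measured 12.18, 12 and 12.17 before and 9.76, 9.72 and 9.69 after. The A375 arrays were all below the A2058 arrays under both conditions, and the gap shrank from both sides. The changes were 2.08 ± 0.080 and −2.39 ± 0.080 (SE), a difference of 4.47 ± 0.11 (22.1-fold, adjusted p = 2.89e-11). DKK1, a secreted inhibitor of Wnt signalling, went from 6.52, 6.27 and 6.33 to 8.16, 8.44 and 8.55 in A375 and from 9.22, 9.11 and 9.17 to 6.82, 6.77 and 6.83 in A2058. A2058 was the higher line before treatment and A375 after it, with no overlap between any of the groups. The difference was 4.38 ± 0.13 (adjusted p = 8.03e-11).

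HLA-DMB, a chaperone that loads peptides onto MHC class II, crossed over in the same manner. It read 8.17, 8.24 and 8.13, then 9.57, 9.71 and 9.60 in A375, and 8.92, 9.01 and 8.95, then 7.57, 7.58 and 7.43 in A2058. The changes were nearly mirror images, 1.45 ± 0.056 and −1.44 ± 0.056. ANK3, an adaptor between membrane proteins and the cytoskeleton, had an unequal pair of changes, 3.15 ± 0.066 in A375 and −0.97 ± 0.066 in A2058. The lines were close for ANK3 before treatment (6.34, 6.27 and 6.33 against 6.49, 6.54 and 6.73) and far apart after it (9.37, 9.49 and 9.54 against 5.65, 5.54 and 5.67). The other 4 genes named for this direction were the hyaluronan-binding protein TNFAIP6 (1.00 and −0.96), the neural adhesion molecule NTM (0.93 and −2.26), LYPD1 (0.91 and −0.98) and the matrix protein EFEMP1 (0.90 and −0.91). Their differences had adjusted p between 8.14e-12 and 2.5e-08.

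The other direction, down in A375 and up in A2058, was led by FBXO32 and SAT1. FBXO32, the substrate receptor of a ubiquitin ligase and a known FOXO target, measured 8.68, 8.66 and 8.60 in A375 DMSO and 5.98, 6.20 and 6.35 with vemurafenib. In A2058 it went from 7.79, 7.73 and 7.92 to 9.01, 8.85 and 8.91. A375 was the higher line before and the lower line after treatment, and the difference of −3.58 ± 0.12 (adjusted p = 2.81e-10) was the fifth lowest of all genes. SAT1, which acetylates polyamines for their breakdown, had overlapping DMSO arrays in the lines, 8.49, 8.55 and 8.55 in A375 against 8.73, 8.51 and 8.69 in A2058. With vemurafenib it read 5.62, 5.91 and 6.09 in A375 and 9.54, 9.54 and 9.47 in A2058, changes of −2.65 ± 0.096 and 0.88 ± 0.096. Replicate 1 was the lowest of the treated A375 arrays for both genes.

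IGSF3, an immunoglobulin superfamily membrane protein, fell by 1.32 in A375 and rose by 1.06 in A2058. RFLNB, which binds the actin crosslinker filamin, showed −1.18 and 1.00. GLUL, glutamine synthetase, started at 7.99, 7.96 and 7.96 in A375 and ended at 7.27, 7.06 and 7.10, while in A2058 it rose from 8.13, 8.14 and 8.22 to 9.12, 9.20 and 9.04. Its lines were close before treatment and were separated by more than either change after it. GLUL has 2 probe sets, and its difference lay between −1.87 and −1.25 over the alternative settings. The remaining named genes were the monoamine transporter SLC29A4 (−0.97 and 0.93), the lipid transfer protein STARD10 (−0.83 and 0.89) and TCP11L2 (−0.82 and 0.85). For each of these 16 genes the difference kept its call and its sign in all 19 alternative settings in which it was recomputed.

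**Figure D2:**
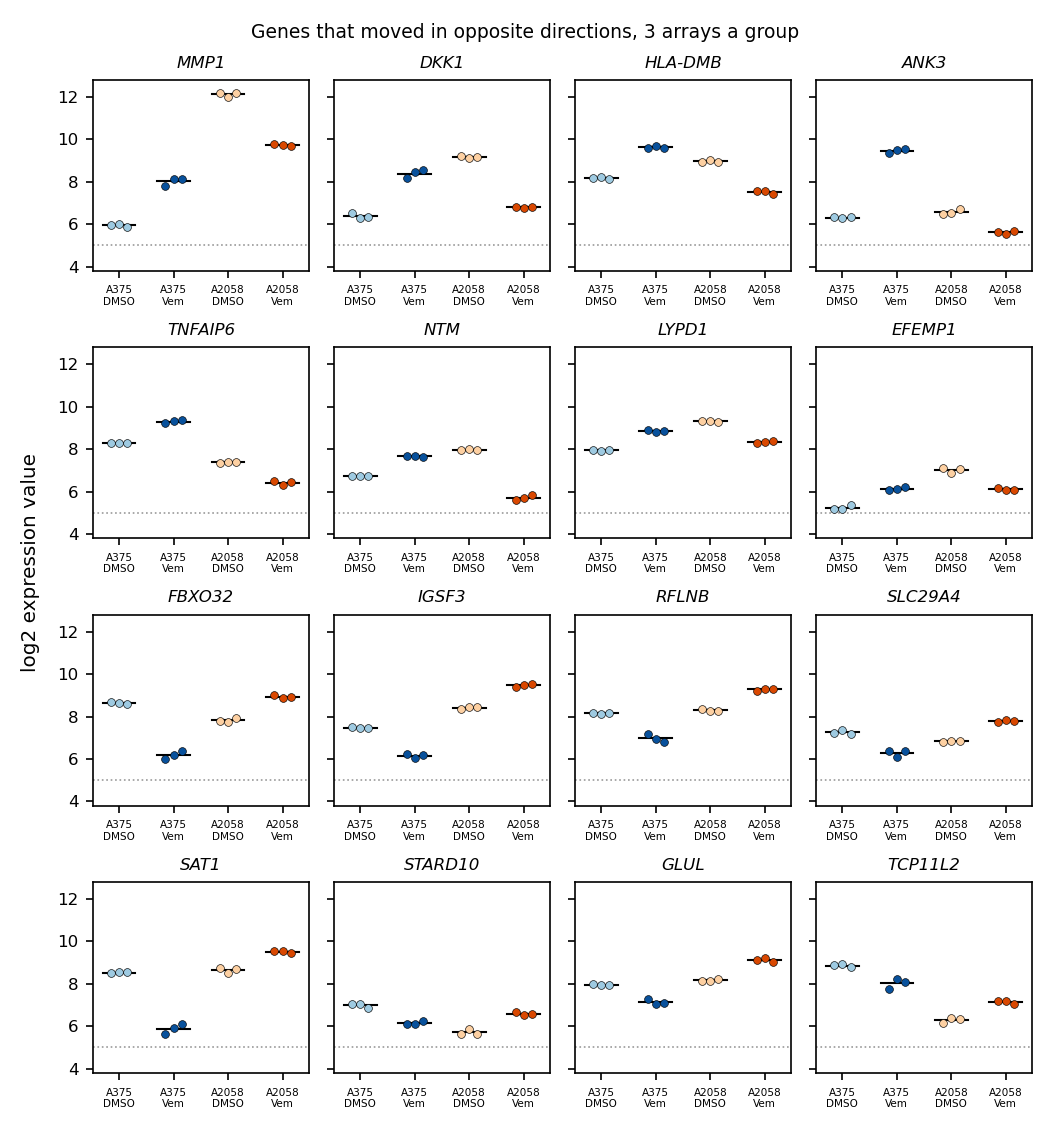
Log2 expression value (vertical axis) on each array of the 16 named genes with opposite changes, by line and treatment, with 3 points a group, a bar at the group mean and a dotted line at the floor value of 5. For MMP1 the lines approach each other, for DKK1 and FBXO32 they exchange order, and for ANK3 and SAT1 they start close and end apart.

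The A375-only set held 201 rises (1.09%) and 182 falls (0.989%). Of the rises, 147 (0.799%) were detected in A2058 before treatment, with a median A2058 level of 7.03 under DMSO and 7.05 under vemurafenib, and 74 of them had an A2058 DMSO mean of at least 7. These 147 genes rose by a median of 1.48 in A375. The other 54 (0.293%) were near the floor in A2058, at medians of 4.65 and 4.66, and 28 of them were under 5 in A375 DMSO as well. Near the floor a fall in A2058 has little room to show, while a rise does have room. For these genes a flat A2058 value therefore bounds a rise better than a fall. Small falls in A2058 from near the floor were still called among the A375-only falls, as for FERMT1 (−0.39, adjusted p = 4.6e-05) and SYTL5 (−0.19, adjusted p = 0.0479).

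Interferon stimulated genes led the A375-only rises on both sides of the floor. Of 45 measured genes of that list, 43 had a higher change in A375 and none a lower one (limma; also none at an unadjusted p under 0.05), and the median difference was 2.8, against −0.0053 over all genes. The 2 without a called difference were IFITM2 and MX2. In A375, 44 of the 45 rose (median 3.0), the exception being GBP3 at 0.14. In A2058, 15 rose and 3 fell (median 0.031). For these and later counts by line, the shares over all genes were 17.7% called up and 19.3% down in A375. In A2058 they were 14.6% up and 12.5% down. For counts of differences between the lines, the shares over all genes were 13.1% higher and 16.4% lower in A375. By the 1-line rule 22 were A375-only with A2058 detected and 7 with A2058 near the floor. The DMSO means of the lines were within 0.5 of each other for 26 of the 45, against 80.1% of all genes.

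OAS2, which makes an activator of RNase L on sensing double-stranded RNA, measured 5.93, 5.88 and 5.90 in A375 DMSO and 10.81, 10.94 and 10.94 with vemurafenib. In A2058 it stayed at 5.17, 5.24 and 5.19 before and 5.35, 5.27 and 5.23 after (0.09 ± 0.048, adjusted p = 0.247). The treated A375 arrays stood alone, and the difference was 4.91 ± 0.067. OAS1, of the same enzyme family, rose from 6.49, 6.49 and 6.56 to 10.42, 10.82 and 10.66 in A375, with an A2058 change of −0.02 ± 0.077. RIGI, a sensor of viral RNA, had DMSO arrays that overlapped between the lines (6.18, 6.10 and 6.10 against 6.12, 6.10 and 6.19). It reached 9.97, 10.13 and 10.08 in treated A375 and 6.07, 6.14 and 6.11 in treated A2058. SAMHD1, which destroys nucleotides needed for reverse transcription, rose by 3.58 ± 0.067 in A375 against 0.08 ± 0.067 in A2058. TMEM171, a membrane protein in none of the lists, rose by 3.58 ± 0.063 in A375 and measured −0.29 ± 0.063 in A2058. That A2058 fall was called (adjusted p = 0.00368) but its interval lay inside the bound.

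IFIT1, a protein that binds viral RNA, had the largest difference of all genes, 5.72 ± 0.081 (52.9-fold). Its A375 arrays went from 4.64, 4.65 and 4.56 to 10.62, 10.61 and 10.62, and its A2058 arrays from 4.59, 4.54 and 4.76 to 4.85, 4.88 and 4.99. Both lines began near the floor, and the small A2058 rise of 0.28 ± 0.057 was called (adjusted p = 0.0026). XAF1, an interferon induced partner of an apoptosis inhibitor, rose from 4.79, 4.78 and 4.73 to 9.92, 9.95 and 9.98 in A375 and measured 4.71, 4.72 and 4.64, then 4.61, 4.66 and 4.68 in A2058. RSAD2, an antiviral enzyme also named viperin, reached 8.49, 8.78 and 9.0 in treated A375 from 4.42, 4.40 and 4.44. IFIT2 and IFI27 rose by 3.47 ± 0.070 and 3.45 ± 0.056. TAC1, the precursor of substance P and no interferon gene of the lists, rose from 4.23, 4.17 and 4.26 to 8.13, 8.67 and 8.55 in A375 and stayed at 4.13 to 4.29 on all A2058 arrays. The largest difference of a gene outside the 1-line set was 5.64 ± 0.073 for TCN1, a vitamin B12 binding protein, which rose by 5.0 in A375 and fell by 0.64 in A2058.

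Genes of the interferon system upstream of those targets differed in both directions. Of 18 receptor, JAK, STAT, IRF and SOCS genes measured, 11 differed (61.1%, against 29.5% of all genes), 6 higher and 5 lower in their A375 change (median −0.091). IRF9, a subunit of the interferon activated factor, rose in both lines, from 6.76, 6.71 and 6.68 to 8.80, 8.75 and 8.79 in A375 and from 6.70, 6.68 and 6.62 to 7.33, 7.41 and 7.41 in A2058, and the difference was 1.35 ± 0.059. IRF7 rose in A375 (1.03 ± 0.11), with an A2058 value of 0.06 ± 0.11, and IRF2 rose in A375 by 0.30 and fell in A2058 by 0.45. None of 9 interferon ligand genes had a called difference, nor a difference at an unadjusted p under 0.05 (limma). Of these, 6 lay under 5 in all groups, among them IFNB1 at 4.04 to 4.12 on every array.

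Promoters of these genes were read from the RefSeq promoter table of build GRCh38.p14, which held 14228 of the 18404 tested genes, as the 250 bases before the annotated start. GAAA, any 2 bases and GAAA again, the core of the interferon stimulated response element (ISRE), was searched on both strands and found in 3.07% of all 27305 promoters of the table and 2.57% of those of tested genes. It stood in 27 of 151 promoters of A375-only rises (17.9%), with 20 of 120 (16.7%) for genes detected in A2058 and 7 of 31 (22.6%) for those near its floor. For A375-only falls the count was 3 of 148 (2.03%), and for the interferon stimulated list 21 of 37 (56.8%), a list chosen with these data known. A STAT site, TTCNNNGAA, was found in 6.78% of all promoters, 6.14% of those of tested genes and 13 of 151 A375-only rises (8.61%), and 4 of the 151 held both motifs. A match is a description of the letters, not a binding site. The promoters of the largest 2 named A375-only rises that hold the ISRE core show how it is placed. IFIT1 (chr10:89392373-89392622, + strand) has 2 matches, the first starting 116 bases before the start, and IFI44L (chr1:78620198-78620447, + strand) has 2, the first starting 164 bases before it. Capitals mark the matches, 5′ to 3′, and in IFIT1 they are the reverse complement.
IFIT1: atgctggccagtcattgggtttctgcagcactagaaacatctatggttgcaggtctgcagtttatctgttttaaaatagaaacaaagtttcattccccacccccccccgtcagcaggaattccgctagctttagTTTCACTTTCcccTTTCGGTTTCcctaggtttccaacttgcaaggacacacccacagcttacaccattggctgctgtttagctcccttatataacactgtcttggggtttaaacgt
IFI44L: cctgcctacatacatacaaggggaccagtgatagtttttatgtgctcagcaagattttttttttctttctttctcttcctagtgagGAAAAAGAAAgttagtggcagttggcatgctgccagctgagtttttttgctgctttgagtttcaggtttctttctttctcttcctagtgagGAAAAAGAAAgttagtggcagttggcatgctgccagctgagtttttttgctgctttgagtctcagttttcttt

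IFI44L, whose promoter is shown beside that of IFIT1, measured 5.0, 4.96 and 4.91 in A375 DMSO and 9.67, 9.92 and 9.90 with vemurafenib. Its A2058 arrays read 5.16, 5.15 and 5.12 before and 5.13, 5.12 and 5.18 after. It counts as detected in A2058 by a narrow margin. The difference was 4.88 ± 0.084. Among the other named A375-only rises in the table, IFI27 also held the ISRE core, while RIGI, SAMHD1, XAF1, RSAD2 and OAS1 did not in this window.

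Antigen presentation genes differed in every measured member. All 14 genes of MHC class I presentation had a higher change in A375 (median difference 1.0), and all 14 rose in A375, while in A2058 3 rose and 5 fell. TAP2, of the peptide transporter, rose from 6.75, 6.74 and 6.63 to 8.02, 8.14 and 8.05 in A375 and fell from 7.26, 7.40 and 7.42 to 6.90, 6.87 and 6.93 in A2058. A2058 was the higher line before and A375 after treatment. The TAP2 difference was 1.83 for this probe set and 0.95 for the mean of its 3 probe sets. The immunoproteasome subunit PSMB9 rose by 1.45 ± 0.048 and fell by 0.20 ± 0.048, and TAP1 rose in both lines, by 1.58 and 0.15. All 10 genes of the class II pathway also had a higher change in A375 (median 1.3), with 9 called up in A375, 8 called down in A2058 and 7 opposite by rule. HLA-DMA rose from 9.71, 9.68 and 9.78 to 10.67, 10.75 and 10.69 in A375 and fell from 10.31, 10.27 and 10.33 to 9.56, 9.56 and 9.53 in A2058. The HLA-DMA difference was 1.73, and 0.996 for the mean of its 2 probe sets. HLA-DOA rose by 1.65 ± 0.096 and fell by 0.40 ± 0.096. Close paralogs in the HLA family can share probes, so the value of any 1 HLA gene is uncertain. In the complement list 8 of 14 genes differed (57.1%, against 29.5% of all genes), 6 higher and 2 lower in A375. The largest of these differences was that of the protease C1S. It rose from 5.07, 5.15 and 4.99 to 10.28, 10.41 and 10.39 in A375 and from 4.76, 4.83 and 4.71 to 5.17, 5.14 and 5.16 in A2058. Its partner C1R rose by 2.59 and 0.66, and CD55, which protects cells from complement, fell by 2.04 and 0.80.

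**Figure D3:**
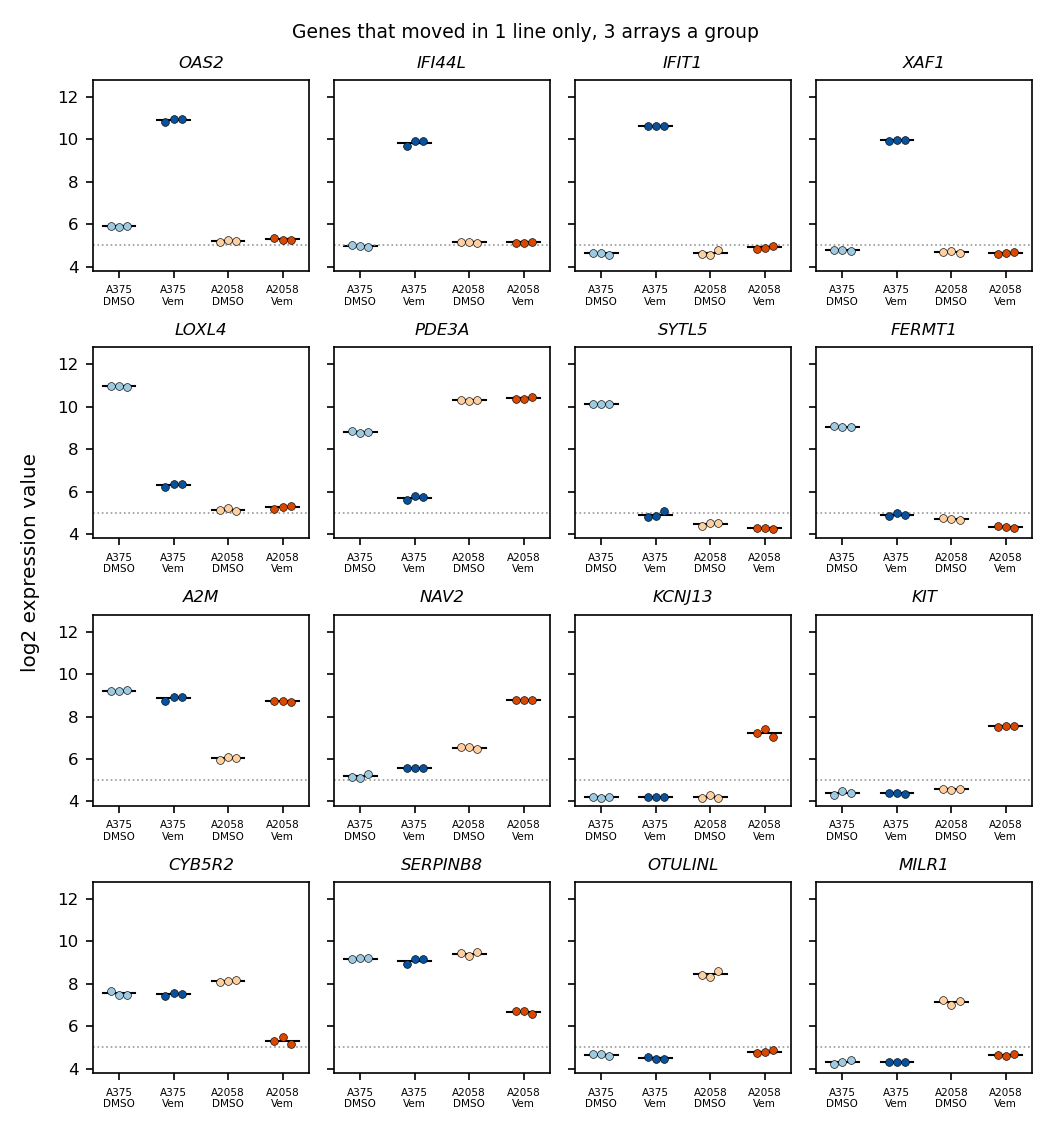
Log2 expression value (vertical axis) on each array of 16 genes that moved in 1 line only, by line and treatment, with 3 points a group, a bar at the group mean and a dotted line at the floor value of 5. In each panel the arrays of 1 line move, and the arrays of the other line change by at most 0.39 between its group means.

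Of the 182 A375-only falls, 150 (0.815%) were detected in A2058 before treatment and 32 (0.174%) were near the floor there. For these 32 a fall in A2058 like that in A375 had little room to show, so a flat A2058 value says less. The detected falls went from a median of 8.45 to 6.97 in A375 beside 7.44 and 7.39 in A2058. The 32 genes near the floor of A2058 changed by a median of −1.63 in A375, against −1.27 for the detected genes, and 17 of them ended under 5 in A375 too. For those 17 the fall may be understated if values near the floor are compressed, which was not tested.

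LOXL4, a lysyl oxidase that crosslinks matrix, fell from 10.99, 10.98 and 10.95 to 6.23, 6.35 and 6.34 in A375. In A2058 it was low throughout, at 5.15, 5.23 and 5.06 and then 5.19, 5.25 and 5.31. The treated A375 arrays stayed above all A2058 arrays, and the difference was −4.77 ± 0.074 (adjusted p = 4.24e-13). PDE3A, a phosphodiesterase of cyclic nucleotides, and IGFBP5, which binds insulin-like growth factors, showed the other arrangement, with A2058 the higher line. PDE3A fell from 8.84, 8.76 and 8.79 to 5.6, 5.79 and 5.75 in A375 and read 10.32, 10.28 and 10.32, then 10.38, 10.38 and 10.48 in A2058. IGFBP5 fell from 9.97, 9.96 and 10.05 to 7.08, 7.12 and 7.10, beside 12.16, 12.14 and 12.12 and then 11.97, 12.03 and 11.98. The A2058 arrays of both genes were well above the floor. The A2058 change was 0.11 ± 0.052 for PDE3A, not called, and −0.14 ± 0.039 for IGFBP5, a called fall (adjusted p = 0.014) inside the bound. VGF, a neuropeptide precursor, changed by −2.85 ± 0.098 in A375 and 0.05 ± 0.098 in A2058. The protease inhibitor SERPINA1 changed by −2.83 ± 0.094 in A375, with −0.18 ± 0.094 in A2058, and MYADM by −2.77 ± 0.050, with −0.02 ± 0.050.

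SYTL5, an effector of Rab proteins in vesicle traffic, had the lowest difference of all genes, −5.04 ± 0.094. It fell from 10.14, 10.11 and 10.14 to 4.78, 4.85 and 5.06 in A375, and A2058 held 4.37, 4.51 and 4.5 and then 4.30, 4.27 and 4.23. FERMT1, an activator of integrins, fell from 9.09, 9.03 and 9.04 to 4.85, 5.01 and 4.88 in A375, with A2058 at 4.76, 4.72 and 4.68 and then 4.38, 4.32 and 4.28. For both genes vemurafenib took A375 down to about the level at which A2058 began. The cytokine IL1A (−3.68 ± 0.15) and the cartilage link protein HAPLN1 (−3.65 ± 0.068) ended above the floor in A375, at 6.0, 6.75 and 6.68 and at 6.99, 7.02 and 6.96. TAGLN3 (−2.99) and FHIP1A (−2.79) ended at about 5.

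**Figure D4:**
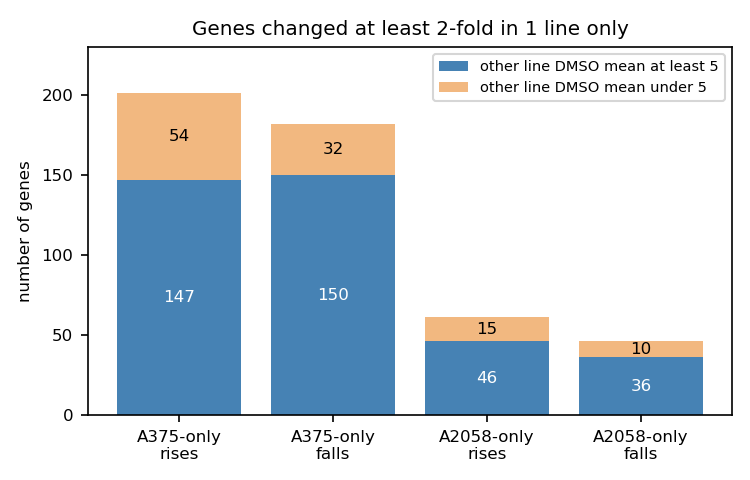
Number of genes (vertical axis) changed at least 2-fold in 1 line with the other line's interval inside ±0.5, by line and direction, divided by whether the other line's DMSO mean was at least 5 or under 5. A375 has 201 rises and 182 falls and A2058 has 61 rises and 46 falls, and the part near the floor is 54, 32, 15 and 10 genes.

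The A2058-only set was smaller, with 61 rises (0.331%) and 46 falls (0.25%). Of the rises, 46 (0.25%) were detected in A375, at medians of 6.04 and 6.07 there, and rose in A2058 from a median of 6.67 to 8.35. The other 15 (0.0815%) were near the floor in A375, and 11 of these were under 5 in A2058 DMSO too. Those 15 rose by a median of 2.18. Without replicate 1 of A375 vemurafenib the A2058-only set again held 107 genes, 101 of them the same, and the A375-only set held 413, of which 364 were the same.

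Pigment cell genes were the leading group of the A2058-only rises. Of 30 measured genes of pigment cell differentiation, 22 had a lower change in A375 and 2 a higher one, GPNMB and S100B, with a median difference of −0.66. In A2058 26 rose and none fell (limma; also none at an unadjusted p under 0.05), with a median of 0.75, while in A375 7 rose and 4 fell. By rule 9 were A2058-only, 5 detected in A375 and 4 near its floor. PMEL, which forms the fibrils of melanosomes, rose from 8.52, 8.40 and 8.43 to 10.88, 10.89 and 10.86 in A2058 and stayed at 4.92 to 5.18 on all A375 arrays. MLANA, a melanosome antigen, began near the floor in both lines and reached 7.12, 7.0 and 7.13 in treated A2058, beside 4.59, 4.52 and 4.52 in treated A375. KIT, the receptor for stem cell factor in melanocytes, went from near the floor (4.58, 4.55 and 4.60) to 7.49, 7.57 and 7.54 in A2058. That was a rise of 2.96 ± 0.047 (7.76-fold in array values), with A375 at −0.01 ± 0.047. TYRP1, an enzyme of melanin synthesis, rose by 3.26 ± 0.13 in A2058 and by 0.38 ± 0.13 in A375, where its DMSO arrays were spread from 4.56 to 5.17.

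MITF, the regulator of these genes, did not follow that pattern. It rose by 0.73 ± 0.047 in each line, from 8.29, 8.40 and 8.34 to 9.07, 9.05 and 9.11 in A375 and from 9.68, 9.80 and 9.84 to 10.50, 10.51 and 10.50 in A2058. The difference was 0.00 ± 0.066 (adjusted p = 0.987). A2058 was the higher line on every array. IRF4, a transcription factor that acts with MITF in melanocytes, rose from 6.48, 6.52 and 6.82 to 8.57, 8.61 and 8.80 in A2058, and in A375 it read 5.39, 5.28 and 5.22 and then 5.65, 5.41 and 5.37 (0.18 ± 0.10, adjusted p = 0.198).

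KCNJ13, an inward rectifier potassium channel, was the largest A2058-only rise, 3.01 ± 0.074. It measured 4.17, 4.28 and 4.17 in A2058 DMSO, 7.22, 7.41 and 7.04 with vemurafenib, and 4.16 to 4.22 on all A375 arrays. The M-box TCATGTG, a motif that MITF is known to bind, was searched in the same 250 bases on both strands. It stood in 2.58% of all promoters, 1.86% of those of tested genes, in 1 of 50 A2058-only rises (2%) and in 6 of 23 promoters of the pigment list (26.1%). KCNJ13 (chr2:232776566-232776815, − strand, GRCh38.p14) was that 1 gene, and its promoter is shown for that reason, with the match in capitals as the reverse complement, 112 bases before the start.
KCNJ13: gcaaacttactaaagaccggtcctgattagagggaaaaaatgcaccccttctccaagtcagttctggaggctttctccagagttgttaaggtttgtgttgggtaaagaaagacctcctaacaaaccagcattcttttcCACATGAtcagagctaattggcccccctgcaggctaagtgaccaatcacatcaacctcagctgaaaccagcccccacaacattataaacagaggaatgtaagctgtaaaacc

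Other A2058-only rises came from outside the pigment list. A2M, a broad protease inhibitor, measured 5.97, 6.07 and 6.05 in A2058 DMSO and 8.74, 8.75 and 8.70 with vemurafenib. In A375 it was already high, at 9.19, 9.19 and 9.25, and then 8.75, 8.92 and 8.94, a called fall of 0.34 inside the bound. Treated A2058 thus came up to the lower edge of the A375 arrays. EPAS1, a hypoxia inducible transcription factor, had DMSO arrays of 6.20, 6.39 and 6.27 in A2058 against 6.44, 6.41 and 6.40 in A375, and rose to 8.32, 8.38 and 8.12 in A2058 (A375 0.18 ± 0.074, adjusted p = 0.0861). NAV2, a cytoskeletal guidance protein, rose by 2.27 ± 0.050 (A375 0.39 ± 0.050), the integrin ligand EDIL3 by 1.95 ± 0.12 (A375 0.16 ± 0.12) and ETNK2, an ethanolamine kinase, by 1.90 ± 0.081 (A375 −0.31 ± 0.081). DCLK1, a microtubule-associated kinase, and CA14, a carbonic anhydrase, rose by 2.49 ± 0.052 and 2.27 ± 0.043 from near the floor, with A375 near the floor throughout.

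Of the 46 A2058-only falls, 36 (0.196%) were detected in A375 and 10 (0.0543%) were near its floor. CYB5R2, a cytochrome b5 reductase, fell from 8.11, 8.12 and 8.17 to 5.29, 5.51 and 5.15 in A2058 and held 7.68, 7.49 and 7.49, then 7.43, 7.57 and 7.51 in A375. SERPINB8, an intracellular protease inhibitor, fell from 9.44, 9.33 and 9.49 to 6.71, 6.70 and 6.60, while A375 stayed at 8.94 to 9.21. For both genes the lines were closer to each other before treatment than after it. CDKN2B, an inhibitor of the cyclin D kinases, changed by −2.04 ± 0.093 (A375 0.04 ± 0.093), the chemokine CXCL14 by −1.97 ± 0.092 (A375 0.14 ± 0.092) and the stress cytokine GDF15 by −1.92 ± 0.055 (A375 −0.16 ± 0.055, adjusted p = 0.0361). ART3 changed by −2.45 ± 0.091, and in A375 by −0.29 ± 0.091. Near the A375 floor, OTULINL fell from 8.44, 8.34 and 8.61 to 4.76, 4.80 and 4.86 in A2058, the largest A2058-only change (−3.66 ± 0.061, 12.6-fold). MILR1, an inhibitory receptor of mast cells (−2.50), SLC18A1, a vesicular monoamine transporter (−2.43), PDE8B, a cyclic AMP phosphodiesterase (−2.11), RTN1 (−1.39) and ACP7 (−1.37) followed.

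The floor value of 5 divides a continuum. Among A375-only genes AZGP1 lay just under it, with A2058 DMSO arrays at 5.04, 5.02 and 4.92, and EBF3 just over it, at 4.97, 5.09 and 4.94. AZGP1 rose by 1.02 in A375 and EBF3 fell by 1.45. Among A2058-only genes PMEL lay just under it in A375 DMSO, and ARMCX1 just over it at 4.97, 5.05 and 5.06. Moving the floor to 4.5 left 17 of the A375-only rises and 9 of the falls on its lower side, and 8 and 2 for A2058. At 5.5, 81 A375-only rises and 54 falls lay under it, and 28 and 14 for A2058. Detected thus means only a DMSO mean of at least 5, and whether such genes are expressed was not tested.

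The pathway lists were written with earlier results of these data known, so their counts describe the difference and are no independent evidence of it. Among targets and feedback regulators of ERK, the pathway vemurafenib blocks, 26 of 31 differed (83.9%, against 29.5% of all genes). They were divided into 13 in each direction (median −0.044). Most fell in both lines, 27 in A375 and 25 in A2058. The ERK phosphatase DUSP6 fell from 10.19, 10.26 and 10.19 to 8.48, 8.54 and 8.56 in A375 and from 9.67, 9.75 and 9.80 to 7.15, 7.0 and 7.19 in A2058, a difference of 0.93 ± 0.077. SPRY4, a receptor pathway inhibitor, fell further in A375 (−3.91 against −3.00), while the transcription factor ETV5 (−1.33 against −1.95) and cyclin D1, CCND1 (−1.93 against −2.43), fell further in A2058. The chemokine CXCL8 fell from 11.04, 11.15 and 11.23 to 10.41, 10.43 and 10.41 in A375 and from 9.38, 9.35 and 9.42 to 5.66, 5.58 and 5.91 in A2058. Its difference of 2.94 ± 0.10 was the largest of the list. By rule 6 of the 31 were A375-only falls, with A2058 detected, VGF among them. The pseudokinase TRIB2 was also one of the 6, and since its A2058 rise of 0.27 was called beside −2.60 in A375, it also counts as an opposite change.

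**Figure D5:**
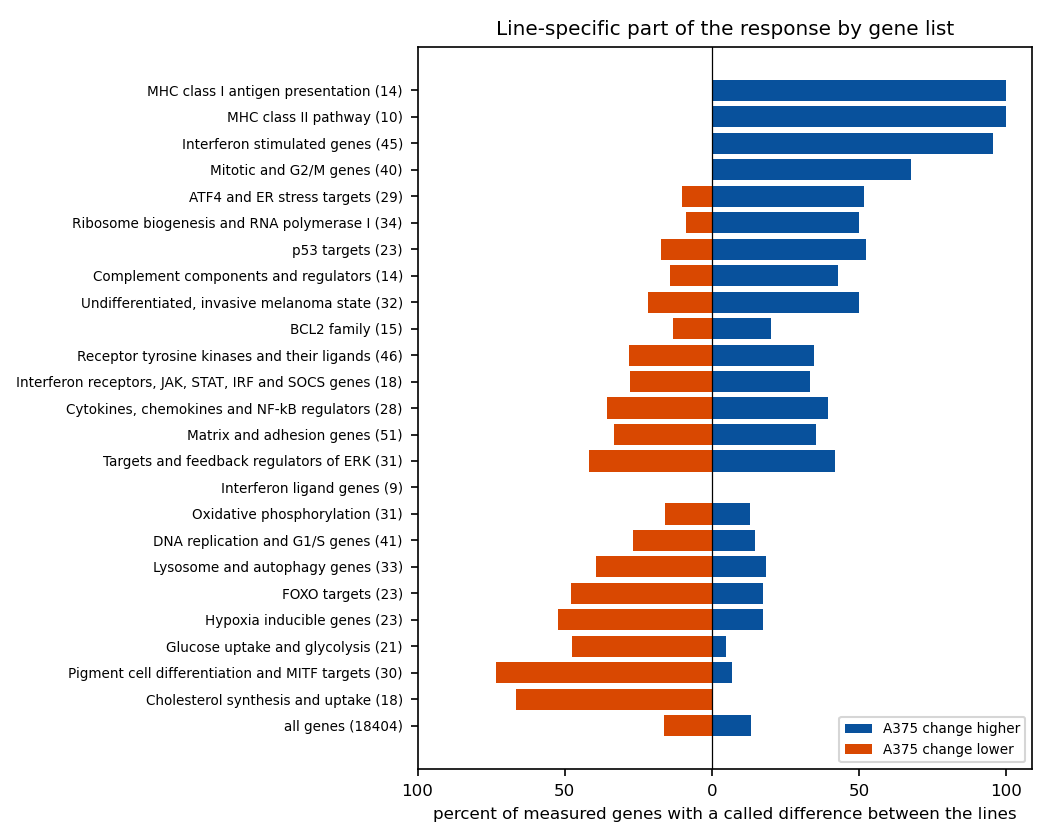
Share of measured genes of each list (number measured in brackets) whose response differed between the lines, in percent, with a higher change in A375 to the right and a lower one to the left. Both MHC lists reach 100% to the right, pigment and cholesterol genes lie mainly to the left, and ERK targets are divided evenly, beside 13.1% and 16.4% for all genes.

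Cholesterol synthesis and uptake genes differed in 1 direction. Of 18 measured, 12 had a lower change in A375 and none a higher one (limma; also none at an unadjusted p under 0.05), with a median of −0.44. In A2058 14 rose and none fell, and in A375 4 rose and 7 fell. DHCR7, which makes the last step to cholesterol, had close DMSO arrays in the lines (8.84, 8.75 and 8.86 against 8.88, 8.88 and 8.95). It fell to 7.35, 7.52 and 7.23 in A375 and rose to 9.09, 9.13 and 9.10 in A2058. CYP51A1, an enzyme of the same pathway, fell by 1.22 ± 0.068 and rose by 0.26 ± 0.068 (difference −1.48, or −0.97 for the mean of its 2 probe sets), and the sterol carrier STARD4 fell by 1.18 ± 0.066 in A375 with 0.03 ± 0.066 in A2058. Glycolysis genes (20 of 21 in A375, 18 in A2058) and hypoxia inducible genes (20 of 23 in A375, 16 in A2058) fell in both lines. The change was the lower in A375 for 10 of the 11 called glycolysis genes of 21 and for 12 of the 16 called hypoxia genes of 23. Aldolase C, ALDOC, fell from 10.67, 10.64 and 10.64 to 8.0, 8.05 and 7.85 in A375 and read 5.73, 5.76 and 5.69, then 5.39, 5.67 and 5.58 in A2058. VEGFA was an exception, with −0.57 in A375 and −1.94 in A2058. Without replicate 1 of A375 vemurafenib, 14 cholesterol genes and 15 hypoxia genes had the lower change in A375.

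Mitotic and G2/M genes rose in A375 by more than in A2058. Of 40 measured, 27 had a higher change in A375 and none a lower one (limma; also none at an unadjusted p under 0.05), with a median of 0.42. In A375 33 rose and 1 fell, and in A2058 8 rose and 4 fell. The DMSO means of the lines were within 0.5 of each other for 7 of the 40, against 80.1% of all genes. Cyclin B1, CCNB1, rose from 8.55, 8.54 and 8.46 to 9.05, 9.26 and 9.20 in A375, with A2058 at 9.14, 9.14 and 9.17 and then 9.18, 9.12 and 9.19. The DMSO means of CCNB1, CDK1 and CENPE were lower in A375 (8.52, 7.30 and 6.99) than in A2058 (9.15, 8.97 and 8.09). Replicate 1 of A375 vemurafenib was the lowest of its group for these genes, and without it 33 genes of the list were higher and 1 lower. The CENPE difference (0.58 ± 0.19, adjusted p = 0.0389) lost its call in 11 of 19 alternative settings, with adjusted p up to 0.0964. Of 41 DNA replication genes 31 fell in A375 and 24 in A2058, and 17 differed (41.5%), 6 upward and 11 downward, beside 13.1% and 16.4% of all genes in those directions. Of 34 ribosome biogenesis genes 30 fell in A2058 and 15 in A375, and 17 differed upward and 3 downward (median 0.27). MRTO4, a ribosome assembly factor, fell by 0.86 ± 0.056 in A2058 and measured 0.03 ± 0.056 in A375.

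Lists with differences in both directions held single genes with large ones. Over all genes, the A375 change was higher for 13.1% and lower for 16.4%. Of 32 genes of the undifferentiated melanoma state 16 were higher and 7 lower. The neurotrophin receptor NGFR, a marker of neural crest-like melanoma cells, rose from 6.63, 6.61 and 6.53 to 9.83, 9.82 and 9.95 in A375 and read 8.01, 8.21 and 8.01, then 8.23, 8.20 and 8.30 in A2058. A2058 was the higher line before and A375 after treatment. The matrix protein THBS1 rose by 1.86 in A375 and fell by 0.76 in A2058. EGFR, of the same list, measured −0.19 ± 0.10 and −0.16 ± 0.10, with a difference of −0.03 ± 0.15 (adjusted p = 0.934). Among 51 matrix and adhesion genes 18 were higher and 17 lower, and TINAGL1 fell by 4.47 and 1.07. Among 46 receptor tyrosine kinases and ligands 16 were higher and 13 lower, with MERTK at 2.14 and 0.21 and FLT1, a VEGF receptor, at 0.43 and −1.48. The median difference of the matrix list (0.039) turned to −0.0092 without replicate 1 of A375 vemurafenib and to −0.014 with array weights, and that of the receptor list (−0.0054) to 0.0068 with quantile normalization. Among 28 cytokines 11 were higher and 10 lower, and CXCL10 rose from 8.55, 8.53 and 8.56 to 11.13, 11.36 and 11.30 in A375 while A2058 stayed between 4.14 and 4.76.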

How the data were processed

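The authors deposited log2 values for 32321 probe sets on each of the 12 arrays. That the scale is log2 and already normalized between arrays was read from the values, whose quartiles nearly coincide. The submitters' processing notes name R 3.0.1 and affy. How background was corrected and probes were summarised is not given in the sources used here. Signal compression near the floor can make changes of dim genes look smaller, and its size was not tested here.

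Genes were named through the platform annotation, updated by Entrez number with RefSeq (GRCh38.p14, 19128 of 19158 probe sets with 1 symbol matched). Left out were the 13163 probe sets lacking a unique symbol, and the brightest probe set was kept for the 637 genes with several. All 12 arrays entered 1 limma 3.58.1 fit (R 4.3.3) of 4 group means, with Benjamini-Hochberg adjustment over 18404 genes and a threshold of 0.05. Errors are SE of that fit, 3 arrays a group. On simulated data 50 genes were changed at each size. The difference between lines was recovered for 26% at 0.25, 76% at 0.5 and 100% at 1 and 2 (log2). There were 17 false calls (7.8% of calls). Of 50 opposite changes planted at a size of 1 in each line, 49 were recovered. Smaller opposite changes, which make up most of the 812 found in the data, were not simulated. The simulation gave all groups the same base mean and 1 spread per gene, without an outlying array. Far fewer of its genes changed than the 29.5% called in the data, so these rates need not hold for the data.

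The members, rules and lists were chosen with earlier results of these data known. Of 717 entries in 24 pathway lists 659 were measured. Named are the 8 opposite changes in each direction with the largest smaller-of-both change, the 6 largest of each 1-line class, up to 3 called genes per list, the 5 extreme differences of each sign, DUSP6, SPRY4, ETV5, CCND1, MITF, EGFR and IFNB1, and the genes nearest the floor value. The members of the marker lists are given as ranges. GBP3, IFITM2, MX2, GPNMB, S100B and the genes of the closing observations were chosen after their values were seen. Alternatives covered normalization, variance, weights, filters, thresholds, a replicate block and each array left out.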

Additional observations from a re-analysis of the deposited data

Results flagged for a closer look

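The responses of the lines differed, by the test of the difference itself, for 5434 genes. Among genes named for opposite changes, the difference (A375 change minus A2058 change, log2) was 4.47 for MMP1, 4.38 for DKK1, 4.12 for ANK3, 3.19 for NTM, 2.89 for HLA-DMB, 1.96 for TNFAIP6, 1.89 for LYPD1 and 1.81 for EFEMP1. On the other side it was −3.58 for FBXO32, −3.53 for SAT1, −2.38 for IGSF3, −2.18 for RFLNB, −1.89 for SLC29A4, −1.78 for GLUL, −1.72 for STARD10 and −1.67 for TCP11L2. These genes were named by size: in each direction they had the largest values for the smaller of the changes in A375 and A2058. In each, all 3 treated arrays moved up in 1 line and down in the other, and the difference was called. That does not set them apart. The treated arrays lay outside the DMSO arrays in both lines for 325 of all 332 genes up in A375 and down in A2058. The same held for 471 of the 480 genes in the other direction.

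Probe sets outside the gene table also carried the difference. Of the 13163 probe sets with several gene symbols or none, 534 had a called difference between the lines when tested in the same way, 88 of them at 2-fold or more, between −3.55 and 5.56.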

How the results depend on the processing

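Counts within 1.5 times those reported were given by quantile normalization (5652 differences, 876 opposite, 379 A375-only, 106 A2058-only) and by the replicate block (5160, 751, 378 and 105). Trended robust variance, a filter on dim probe sets, the mean of probe sets and group weights stayed within that range too. Array weights gave 6953, 1185, 415 and 111, and moved genes up in A375 and down in A2058 from 332 to 535. Leaving out 1 array gave 4892 to 6638 differences, 676 to 1061 opposite, 360 to 413 A375-only and 100 to 109 A2058-only. With the replicate number as a block no named gene but CENPE lost its call. Same-numbered arrays deviated together (r over 0.1) in 1 of 18 pairs, against 11 of 36 pairs of different number. Deviations were taken from each group's own mean, so these correlations constrain one another. They cannot decide whether the numbers pair the samples.

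The size limits moved the counts most. With the other line held inside 0.3, 213 genes were A375-only and 55 A2058-only. A change of at least 0.5 gave 1374 and 489, and of at least 1.5 gave 166 and 42. Opposite changes of at least 0.5 in both lines numbered 82, and of at least 1, 5. These follow from the limits' own construction. Among 126 called named genes CENPE was the only one to lose its call in any of 19 settings, and none turned sign. With 3 arrays a group small differences can be missed, and near the floor a fall has little room to show.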

Other observations

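Counts of further gene groups stand beside a share of 29.5% for all genes. Of 29 ATF4 and ER stress targets, 15 had a higher change in A375 and 3 a lower one (median difference 0.39). The serine synthesis enzyme PSPH rose from 7.49, 7.33 and 7.36 to 8.21, 8.26 and 8.39 in A375 and fell from 8.89, 8.80 and 8.84 to 8.53, 8.50 and 8.37 in A2058. The amino acid transporter SLC7A5 went the other way, −0.92 in A375 and 0.41 in A2058, and the lipoprotein receptor VLDLR fell by 1.60 in A375 with 0.00 in A2058. Among 23 p53 targets 12 were higher and 4 lower. TP53INP1 rose in both lines, by 1.26 and 2.36, while the death receptor TNFRSF10B fell by 0.22 and 1.06.

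Of 23 FOXO targets 11 had a lower change in A375 and 4 a higher one (median −0.23). KLHL24 rose from 7.09, 7.06 and 7.22 to 8.93, 8.93 and 8.89 in A2058 and measured −0.03 ± 0.087 in A375, and CCNG2 fell by 0.71 in A375 and rose by 0.38 in A2058. Among 33 lysosome and autophagy genes 6 were higher and 13 lower, and cathepsin K, CTSK, rose by 3.18 and 1.28. In the BCL2 family 5 of 15 genes differed (33.3%), near the share of all genes. The BH3-only genes PMAIP1 (−1.09 in A375, −2.60 in A2058) and BCL2L11 (0.09 and 0.84) were among them. Oxidative phosphorylation genes differed in 9 of 31 cases (29%), also near that share, with 4 higher and 5 lower, or 6 and 4 without replicate 1 of A375 vemurafenib. Their regulator PPARGC1A rose by 0.83 ± 0.064 in A2058 with −0.09 ± 0.064 in A375.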
